A study of Caenorhabditis elegans with 2 samples.

Results

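The peaks described here are places of BED-1 ChIP-seq signal, most of them below the threshold for a called peak, whose summit, the single base of highest signal in a peak, lay in the second or a later intron of a protein-coding gene. They were taken from the ranked list of peaks that the authors made from both replicates together. A summit was kept if it lay in a later intron, but in no first intron, of the longest transcript of a gene. It also had to lie in no exon, outside 500 bases upstream to 200 bases downstream of every protein-coding start, and more than 200 bases from any tRNA, snoRNA, snRNA or miRNA gene. This gave 22992 of the 120637 ranked peaks, in later introns of 8529 genes.

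BED-1 is a protein of the nematode Caenorhabditis elegans, and it was mapped by chromatin immunoprecipitation with sequencing (ChIP-seq) in whole young adult worms aged 63 hours. The worms, of strain RW12201, carried a CRISPR insertion, bed-1::TY1::EGFP::3xFLAG, at the endogenous gene on chromosome V. Their chromatin was sheared by sonication, and an antibody to the green fluorescent protein of the tag was used for the precipitation. The 2 samples were biological replicates of 1 group, all worms carried the tag, and a possible control experiment that the labels name was not analysed here. There was therefore no comparison between groups and no test over samples. Whole worms hold all tissues, so the cell types that gave a peak cannot be told apart. The files held peaks and no read counts, so the depth is unknown.

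BED-type zinc fingers are DNA-binding folds named after the fly proteins BEAF and DREF, and related domains occur in chromatin boundary proteins and in transposases. Introns of the worm are mostly short, and the longer ones can hold enhancers, small RNA genes and copies of transposons and other repeats. The arms of the worm's autosomes carry more repeats than the gene-dense centres. The first intron follows the promoter closely in many genes, whereas a later intron is usually flanked by exons that are both inside the transcribed gene.

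A peak was called if its irreproducible discovery rate (IDR), which is low where a peak ranks high in both of a pair of peak sets, was at or under 0.01. The windows below are the 200 bases around the summit of the 5 called later-intron peaks of highest signal that were on the authors' larger final list, lay in sequence found once in the genome and could be shown. They are given on the plus strand of genome build ce11, which is WBcel235, from the RefSeq sequence of that assembly, and capitals mark matches to motifs described further on. They are shown as strong peaks outside exact repeats. The stronger peak of ints-8, also in a unique window, is described further on and its window is not printed. The window in epg-9, whose product acts in autophagy, was chrIV:2602049-2602248. The window in mdt-26, which encodes a subunit of the Mediator complex, was chrII:5661707-5661906, and it reached into the exon before the intron. The window in mom-1, which is needed to make and secrete Wnt signals, was chrX:6296492-6296691. The window in zip-7, which encodes a bZIP transcription factor, was chrIV:16503706-16503905. The window in F35F10.6 was chrV:3288202-3288401, and it reached into the exon after the intron. The mom-1 window began just before its intron.
epg-9: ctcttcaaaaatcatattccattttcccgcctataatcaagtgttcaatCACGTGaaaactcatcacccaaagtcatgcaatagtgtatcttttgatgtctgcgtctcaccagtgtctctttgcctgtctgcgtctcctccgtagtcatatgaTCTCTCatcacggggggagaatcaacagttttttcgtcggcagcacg
mdt-26: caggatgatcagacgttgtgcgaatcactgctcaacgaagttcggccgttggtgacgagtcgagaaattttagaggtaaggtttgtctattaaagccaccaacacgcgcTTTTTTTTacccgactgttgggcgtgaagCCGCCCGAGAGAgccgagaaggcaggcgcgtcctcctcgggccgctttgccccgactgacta
mom-1: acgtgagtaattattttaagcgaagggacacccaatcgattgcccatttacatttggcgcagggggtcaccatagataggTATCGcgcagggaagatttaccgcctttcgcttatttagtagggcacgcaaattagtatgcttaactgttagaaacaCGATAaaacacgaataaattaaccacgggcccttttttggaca
zip-7: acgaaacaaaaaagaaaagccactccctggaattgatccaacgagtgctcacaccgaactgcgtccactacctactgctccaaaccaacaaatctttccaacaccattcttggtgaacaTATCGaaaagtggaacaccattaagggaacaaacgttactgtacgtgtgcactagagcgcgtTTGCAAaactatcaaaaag
F35F10.6: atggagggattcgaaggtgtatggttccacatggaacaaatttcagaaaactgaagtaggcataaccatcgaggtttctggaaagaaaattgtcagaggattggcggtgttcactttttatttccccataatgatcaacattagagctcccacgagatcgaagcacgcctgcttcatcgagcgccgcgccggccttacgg

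The next windows are shown because they are repeats. The highest later-intron signal lay in cmk-1, which encodes a calcium/calmodulin-dependent protein kinase, at chrIV:1831282-1831481. This window was a tandem array, and the capitals in it mark its most frequent 12-base word, which occurred 7 times. The windows in pmt-2, which encodes a phosphoethanolamine methyltransferase, and in K08C7.1 were the strongest pair of similar windows in different genes among those printed, and the similar window of ptr-17 is not printed. They lay at chrV:4632933-4633132, printed on the plus strand, and at chrIV:10658509-10658708, printed on the minus strand so that both run in the same direction. Capitals mark the longest run that both windows hold, of 40 bases. The summits lay at different places within the same repeat, so each window also shows sequence that the other does not reach.
cmk-1: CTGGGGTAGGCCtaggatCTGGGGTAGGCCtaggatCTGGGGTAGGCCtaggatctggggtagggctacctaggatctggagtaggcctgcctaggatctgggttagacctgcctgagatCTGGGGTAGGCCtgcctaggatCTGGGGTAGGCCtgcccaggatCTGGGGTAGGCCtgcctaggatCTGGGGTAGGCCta
pmt-2: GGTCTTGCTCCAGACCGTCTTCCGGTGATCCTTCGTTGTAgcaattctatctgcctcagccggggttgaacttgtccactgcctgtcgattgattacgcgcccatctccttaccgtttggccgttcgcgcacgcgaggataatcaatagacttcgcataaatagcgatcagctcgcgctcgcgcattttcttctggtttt
K08C7.1: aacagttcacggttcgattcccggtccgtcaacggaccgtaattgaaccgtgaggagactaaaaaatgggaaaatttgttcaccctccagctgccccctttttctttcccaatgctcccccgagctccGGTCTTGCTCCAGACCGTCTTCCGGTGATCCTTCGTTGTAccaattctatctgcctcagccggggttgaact

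Few later-intron peaks were called. Of the 22992, 63 passed the IDR threshold, which is 0.274% with an exact 95% interval of 0.211% to 0.350%. Over all ranked peaks the share was 0.584%, from 704 called peaks, so the share in later introns was below the background. The intervals here count peaks as separate observations and cover the counting of peaks only. First introns had 20 called of 6166 peaks, or 0.324%, and coding exons had 94 of 32400, or 0.290%. The intervals of these neighbours in the order overlapped that of later introns. Promoter zones had 131 called of 20252, or 0.647%, with an interval of 0.541% to 0.767% that lay wholly above that of later introns. The authors' larger final list held 61 of the 22992 later-intron peaks, all of them among the 63. Of all 120637 ranked peaks, 589, or 0.488%, were on it. The called peaks in usp-39 and clec-80 were missing from it. The authors' conservative list, of 523 peaks, held 47 later-intron peaks, and 34 of the 63 were among them.

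**Figure D1:**
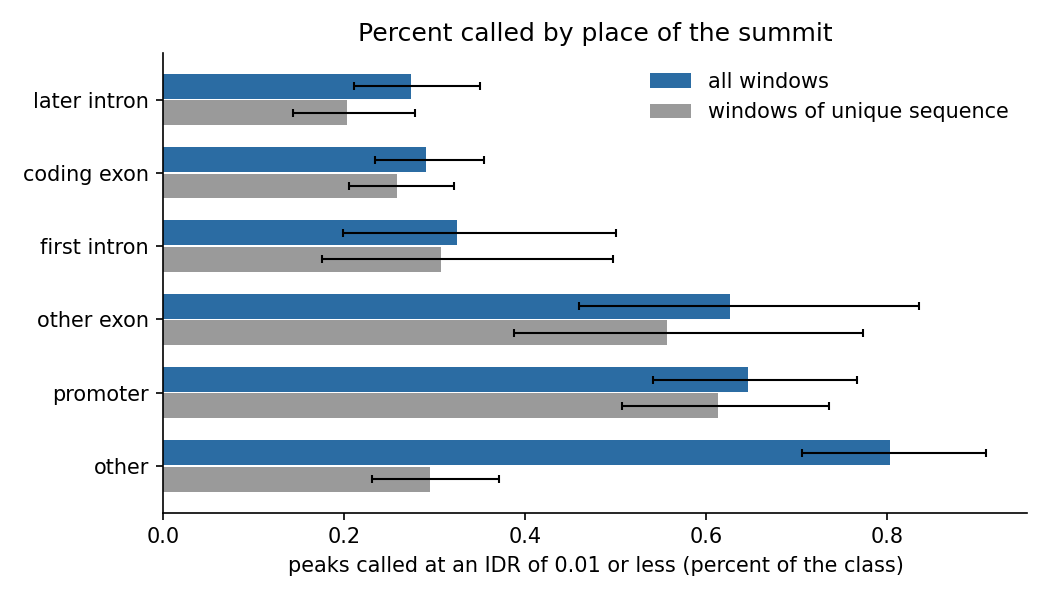
Percent of ranked peaks called at an IDR of 0.01 or less (horizontal axis) by the place of the summit (rows), for all windows (blue) and for windows of unique sequence (grey). Bars are shares of peaks and lines are exact 95% intervals. Later introns had 0.274%, and 0.203% in unique windows, the lowest bar of each colour, with intervals that overlapped those of first introns and coding exons. Summits near small RNA genes, at 9.51%, are not drawn.

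Part of the called set lay in repeated sequence. A window was taken as unique if at least 90% of its 31-base words occurred once in the genome. Of the 63 called windows, 38 were unique, or 60.3%, while 81.5% of all later-intron windows were. Over all ranked peaks, 396 of the 704 called windows were unique, or 56.25%, while 105006 of all 120637 windows were. The lower share among called windows was therefore not particular to later introns. By class, the share of called windows that were unique ran from 29.5% in the class other to 87.8% in promoter zones, with 80% in first introns. In unique windows alone, 38 of 18741 later-intron peaks were called, or 0.203%, beside 396 of 105006 over all ranked peaks, or 0.377%. First introns had 0.306% and coding exons 0.259% in unique windows.

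Signals are the authors' own values, on a scale not given in the sources used here, and were compared only within a list. Called later-intron peaks had a median signal of 75.7, with quartiles of 70.4 and 90.9. The median of all later-intron peaks was 22.5, with quartiles of 14.2 and 31.5. The IDR is made from ranks, so called peaks tend to have high signals, and this difference is a description. A high signal was not required, since the called peak in sup-12 had 18.8, under the median of all later-intron peaks. Of the 63, 10 were at or above a signal of 100. Of the 22929 peaks that were not called, 2 exceeded the median of the called ones.

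**Figure D2:**
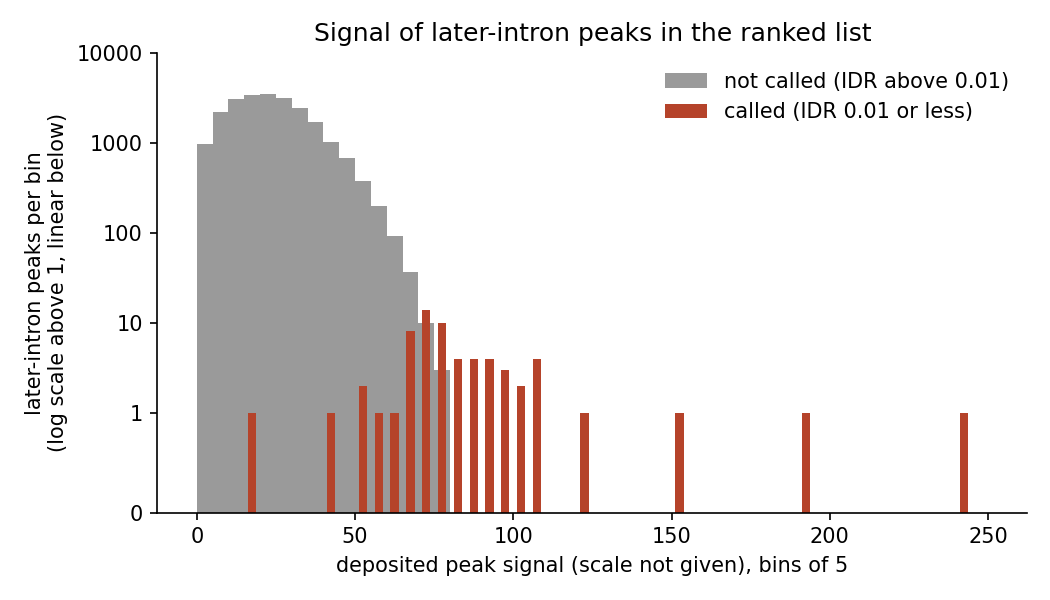
Number of later-intron peaks (vertical axis, logarithmic above 1) by the deposited signal (horizontal axis, bins of 5), for peaks not called (grey) and called (red). The called peaks ran from 18.8 to 241, and cmk-1, ints-8, epg-9 and mdt-26 stand apart to the right.

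The cmk-1 peak had a signal of 241, the highest of all later-intron peaks. Its own peak in replicate 1's list had a signal of 106 and in replicate 2's list 133, and both were called there. The summit lay in intron 2 of 6, which was 1301 bases long, and 31.8% of the window's words were unique. CMK-1 acts in nerve cells of the worm, among other places in the sensing of temperature.

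The second peak, with a signal of 195, lay in intron 5 of 9 of ints-8, which encodes a subunit of the Integrator complex. In the replicates' own lists it had signals of 84.0 and 115, and it was called in both. Its summit lay 22 bases from rpr-1, the gene for the RNA of ribonuclease P, which sits inside this intron. This was the only called later-intron peak within 200 bases of a non-coding gene or pseudogene, while 4.23% of all later-intron peaks were. The kinds of small RNA gene that the choice of peaks left out do not include this one. The peak therefore belongs to the set, by its summit in the list from both replicates. The overlapping own-list summits lay 33 bases from that summit in replicate 1 and 29 bases in replicate 2. Replicate 2's list had 1 called summit in an exon outside coding sequence, with a signal of 115, the value of this peak there. Its summit in that list was therefore classed to an exon, since exons come before introns in the order of classes. On the side of rpr-1, a summit 29 or 33 bases away lies inside that gene, which itself lies within the intron. In replicate 1's list the 8 called later-intron summits had an upper quartile of 67.1, between the values of zip-7 and epg-9. This leaves room for cmk-1 above epg-9 but not for ints-8, so its summit was not classed to a later intron there either. Whether the peak marks the intron or the small gene was not tested.

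The epg-9 peak had a signal of 155, with 83.0 in replicate 1 and 72.7 in replicate 2. It lay in intron 2 of 5, 1824 bases long. EPG-9 is the worm's counterpart of ATG101, a part of the kinase complex that starts autophagy. The mdt-26 peak had a signal of 121, with 55.2 in replicate 1 and 60.8 in replicate 2, and its summit was 26 bases inside an intron of 386 bases. The promoter zone of mdt-26 held another called peak. These 4 peaks were the only ones of the 63 called in both replicates' own lists, and in 3 of the 4 the window was unique, the exception being cmk-1.

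Each replicate's own lists held far fewer called peaks than the list from both. In replicate 1's ranked list 8 of 10670 later-intron peaks were called, or 0.0750%, where the background was 0.303%. In replicate 2's ranked list 9 of 11420 were called, or 0.0788%, where the background was 0.281%. Both shares were below the background of their list, as in the list from both. Later introns were not the lowest class there, however. Coding exons had 0.0366% in replicate 1 and 0.0286% in replicate 2, and first introns had 0% and 0.0979%, all with intervals that overlapped those of later introns. In unique windows the later-intron shares were 0.0456% and 0.0641%, beside 0.0928% and 0.0818% over all peaks of the lists, with overlapping intervals.

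Of the 63 peaks called from both replicates together, 8 overlapped a called peak of replicate 1 and 9 one of replicate 2. These are not all the same peaks as the 8 and 9 above, which were classed by their summits in the replicate's own list. The 4 called only in replicate 1's list lay in ptr-17, usp-39, zip-7 and stim-1, and the 5 called only in replicate 2's list lay in pmt-2, mom-1, F35F10.6, zfp-1 and Y47H9B.2. The other 50 were called in neither list. A peak of any rank was present far more often: 59 of the 63 overlapped a ranked peak in both lists. The peaks in C46H3.2 and T26H5.8 had one in replicate 1 only, and those in srw-100 and C33D9.3 had one in replicate 2 only. Of all 22992 later-intron peaks, 5093, or 22.2%, had a ranked peak in both lists. The 63 were chosen by an IDR that favours high ranks in both of a pair of peak sets, so this difference is a description.

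Over the 59 peaks, Spearman's rho between the own-list signals was 0.06 and Pearson's r of their log2 values was 0.31, given as descriptions, since the peaks share the same 2 libraries and were chosen for high ranks. Without the 4 peaks called in both own lists, the values over the other 55 were -0.15 and -0.20, so the positive r rested on those 4. Over the 5093 later-intron peaks the values were 0.21 and 0.21. An overlap of 1 base can join neighbouring peaks, but in 54 of the 59 both own-list summits lay within 100 bases of the joint one, and over these rho was 0.12 and r was 0.38. The 59 had signals of 15.3 to 106 in replicate 1, with a median of 36.7, and of 26.3 to 133 in replicate 2, with a median of 42.3. The medians of the whole lists were 16.9 and 18.3. The mom-1 peak had 32.8 in replicate 1 and 78.2 in replicate 2. In zip-7 the order was the other way, with 61.8 in replicate 1 and 34.1 in replicate 2. The lowest value, 15.3 for Y47H9B.2 in replicate 1, came from a peak whose summit lay 165 bases away, so it may be that of a neighbour, while its value in replicate 2 was 62.2.

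**Figure D3:**
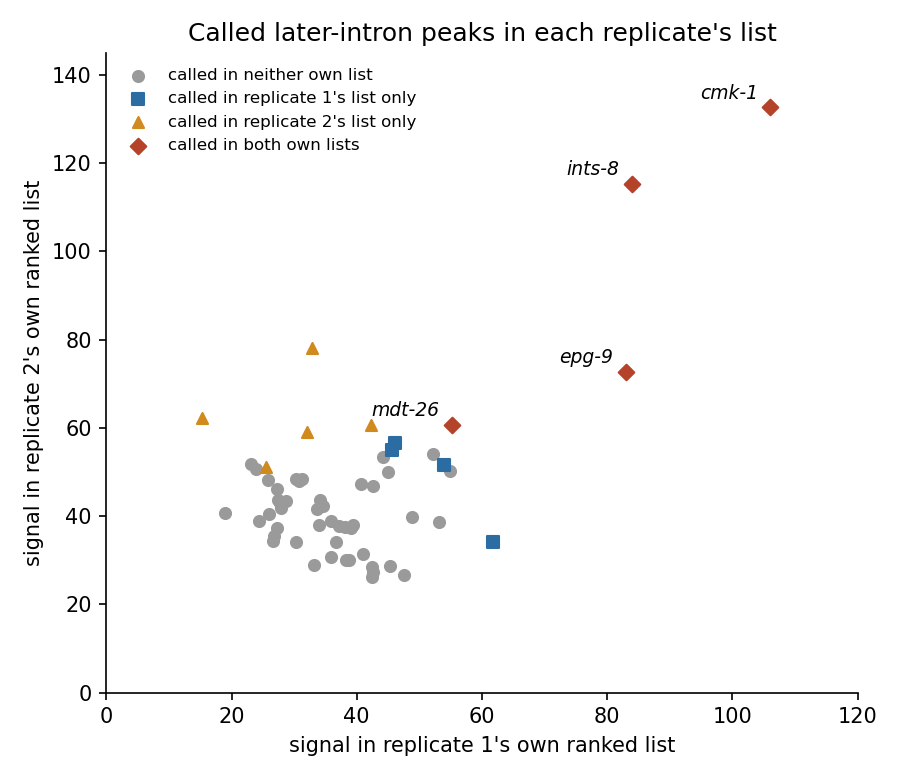
Signal of the 59 called later-intron peaks with a ranked peak in both replicates, in replicate 1's own list (horizontal axis) and replicate 2's own list (vertical axis). Each point is 1 peak, and marks show in which own list it was called. The peaks in cmk-1, ints-8 and epg-9 lie apart toward the upper right and that of mdt-26 at the edge of the rest, which form a cloud with little slope.

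The 63 called peaks lay in 63 different host genes, and no gene held more than 1. The gene with the most later-intron peaks of any rank, hmr-1, which encodes the worm's classical cadherin, held 52 and none of them was called. Of the 63 genes, 5 held a further called peak outside their later introns. These were mdt-26, Y65A5A.2 and Y73F8A.26, each in a promoter zone, and ptc-3 and sup-12, each in a coding exon.

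Among signalling genes, daf-2, the insulin receptor of the worm, held a called peak of 80.5 in intron 10 of 18. Its own-list signals were 34.6 in replicate 1 and 42.3 in replicate 2, and the whole window was masked as repeat. The gene gsa-1, for the alpha subunit of a stimulatory G protein, had a peak of 72.1, with 30.8 and 48.1 in the replicates. The gene mom-1, needed for Wnt secretion, and stim-1, a sensor of calcium in the endoplasmic reticulum, had peaks of 108 and 93.1.

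Among membrane transport and synthesis genes, mod-5, the serotonin reuptake transporter, had a peak of 104.3, with 52.2 and 54.2 in the replicates. The peak in smd-1, the gene for S-adenosylmethionine decarboxylase of polyamine synthesis, had 107, with 54.9 and 50.3. The patched-related gene ptr-17 had 107, with 45.6 and 54.9. All 3 windows fell short of being unique.

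Genes that act on chromatin, transcription and RNA were also among the hosts. The zfp-1 peak, in the worm's counterpart of AF10, had a signal of 79.6, with 25.5 and 51.2 in the replicates. The nuclear hormone receptor gene nhr-51 had 87.8, with 48.8 and 39.9. The homeobox gene ceh-83 had 68.3, with 35.9 and 38.9, and mcm-2, for a subunit of the replicative helicase, had 72.5, with 28.6 and 43.5. The lowest called signal, 18.8, was in sup-12, which encodes an RNA-binding regulator of splicing in muscle. This peak overlapped a called coding-exon peak of 42.7. The replicate 2 peak that overlapped it had 35.6, and the replicate 1 peak, of 26.8, shared 5 bases with it and had its summit 247 bases away, so it is a neighbour rather than a value of this peak.

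Counted over gene lists set by symbol, the hosts were spread thinly. Of all 8529 genes with a later-intron peak, 63 held a called one, or 0.739%. Protein kinases and phosphatases had 3 of 74 (cmk-1, daf-2 and unc-51, the kinase that starts autophagy), chromatin regulators 2 of 61 (let-526 and zfp-1), and RNA processing and Integrator genes 2 of 46 (ints-8 and sup-12). Autophagy and lysosome genes had 1 of 23 (epg-9), synapse and axon genes 1 of 56 (unc-51), homeobox genes 1 of 59 (ceh-83) and nuclear hormone receptors 1 of 158 (nhr-51). The autophagy list did not hold unc-51, which was counted both under kinases and under synapse and axon genes. No called peak lay in the 167 ion channel genes, the 50 muscle and cytoskeleton genes, the 33 matrix genes or the 8 ribosomal protein genes.

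The called windows were rich in G and C. Their median GC content was 46.5%, against 36.5% for all later-intron windows, and over whole peaks the medians were 45% and 36.9%. In unique windows the medians were also 46.5% and 36.5%. The share called rose with GC content, from 0 of 3364 peaks under 30% to 14 of 12046 (0.116%) from 30% to under 40%, 27 of 6650 (0.406%) from 40% to under 50% and 22 of 932 (2.36%) at 50% or more. The intervals of the last 3 classes did not overlap, and the 0 of 3364 allows a share of up to 0.110%, the upper end of its exact interval.

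A rise of the same kind held over all ranked peaks, where the shares were 0.120%, 0.262%, 0.821% and 2.57%. At 50% GC or more their share was close to that of all peaks, with overlapping intervals of 1.49% to 3.55% and 2.22% to 2.96%. From 30% to under 40% their interval of 0.0636% to 0.195% lay below that of all peaks, 0.222% to 0.306%. From 40% to under 50% their interval of 0.268% to 0.590% lay below that of all peaks, 0.737% to 0.912%. First-intron and coding-exon peaks that were called had median GC contents of 48.0% and 49.0%, against 36% and 41% for all peaks of these classes. Sequencing libraries can over- or under-represent GC-rich fragments, the control was not analysed here, and the part of this in the shares was not tested.

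**Figure D4:**
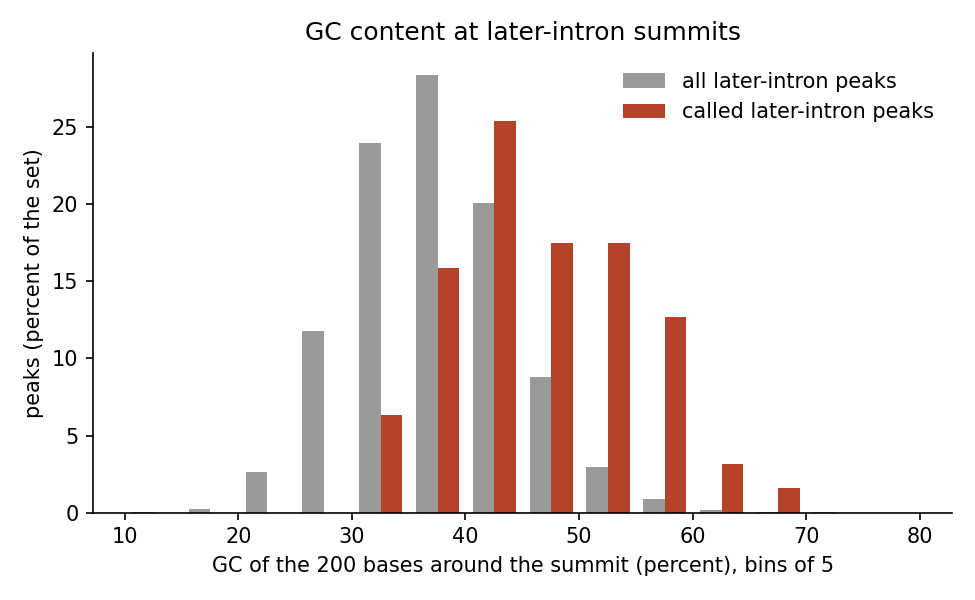
GC content of the 200 bases around the summit (horizontal axis, percent, bins of 5) for all later-intron peaks (grey) and the 63 called ones (red), each as a percent of its set (vertical axis). The called windows are shifted upward, with medians of 46.5% and 36.5%.

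Called peaks lay in longer introns. The median length of the intron was 1299 bases for called peaks, with quartiles of 581 and 2528, and 755 bases for all later-intron peaks. Introns of 1000 bases or longer held 41 of the 63, or 65.1%, and 39.8% of all later-intron peaks. The share called was 0.171% in introns under 100 bases, 0.149% from 100 to under 500 and 0.162% from 500 to under 1000. It was 0.446% from 1000 to under 2000, 0.513% from 2000 to under 5000 and 0.357% at 5000 or more. The intervals of neighbouring length classes overlapped. The step at 1000 bases was present on both sides of 40% GC, with 0.0421% and 0.169% below it and 0.415% and 0.954% at or above it. The paired intervals overlapped on both sides. In windows of unique sequence it was smaller, 0.154% in the shorter introns and 0.296% in the longer ones, with overlapping intervals.

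The longest intron with a called peak was that of Y48C3A.5, of 19927 bases, where the summit lay 9601 bases from the nearest exon and the signal was 84.1. The shortest was in T26H5.8, of 43 bases, less than the width of 260 bases that every called peak had, so that peak covered exon sequence on both sides. Its signal was 66.0, and only replicate 1's list had a peak there, of 46.6. The median distance from the summit to the nearest exon was 346 bases for called peaks and 146 for all.

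Along the transcript, called peaks were placed like the rest. The median intron number was 4 in both sets, the summit lay at a median of 52.4% of the gene's length against 55.2%, and 12 of the 63 lay in the last intron. Host genes ran on the plus strand in 31 and on the minus strand in 32 cases.

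Each chromosome was divided into 3 equal stretches. On the autosomes the outer stretches held 50 called of 14048 later-intron peaks, or 0.356%, and the middle stretch 6 of 4959, or 0.121%. Their intervals, 0.264% to 0.469% and 0.0444% to 0.263%, came close without overlapping. On the X chromosome 7 of 3985 were called, or 0.176%. Over all ranked peaks the shares were 0.599%, 0.523% and 0.624%, with no such gap. In unique windows of all chromosomes the later-intron shares were 0.239% in the outer stretches and 0.122% in the middle, and their intervals overlapped.

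**Figure D5:**
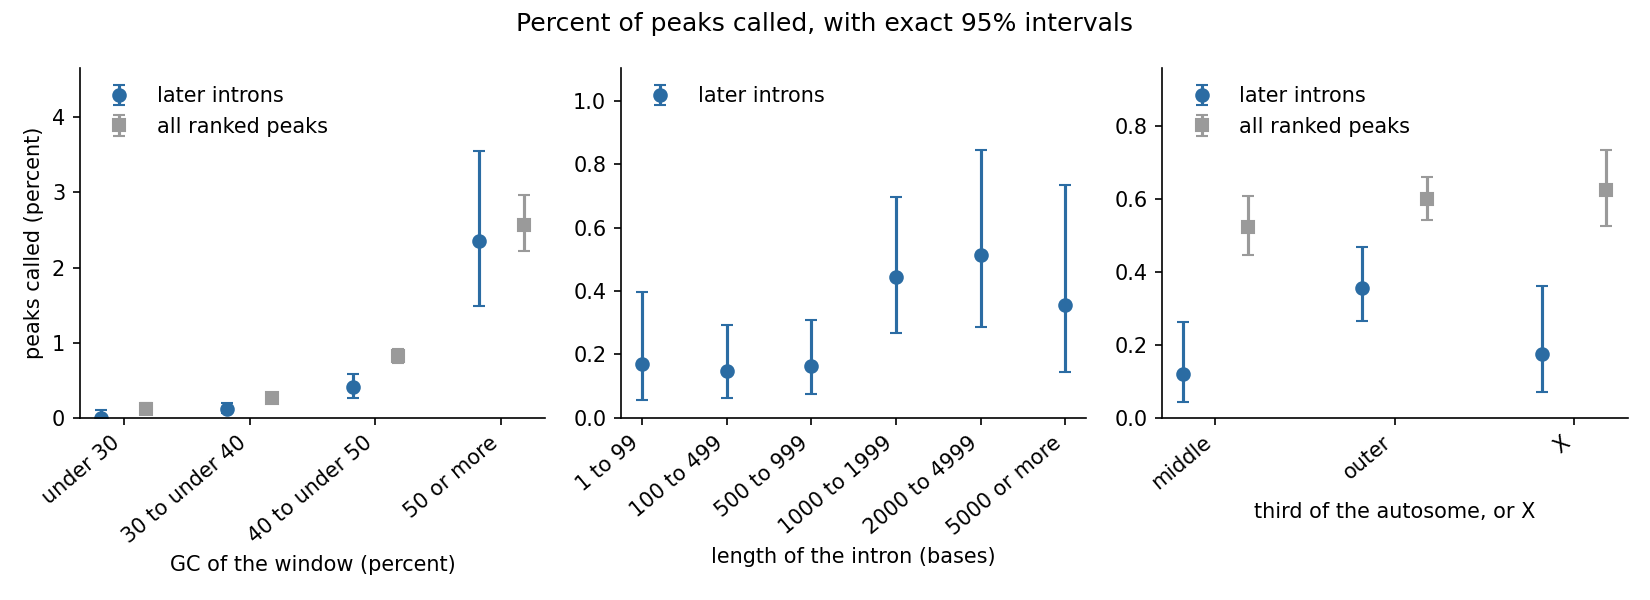
Percent of peaks called (vertical axes, from 0, different in each panel) by GC content of the window, length of the intron and place on the chromosome, for later-intron peaks (blue circles) and, where it applies, all ranked peaks (grey squares). Lines are exact 95% intervals. The share in later introns rose to 2.36% at the highest GC, was higher in introns of 1000 bases or longer, and was 0.356% in the outer and 0.121% in the middle stretch of the autosomes.

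Windows that resemble other places in the genome were sought by alignment over at least 100 bases at 80% identity. Of the 63, 33 had at least 1 such copy and 22 had 10 or more, up to 790 in nft-1. In 4 groups, called windows of different genes resembled each other, and these groups held 14 of the 63. One group joined srw-100, daf-2, Y51F10.4 and nft-1 and matched 1010 places, of which 411 held the summit of a ranked peak and 6 that of a called one. Another joined clec-148, F23C8.7 and gid-8 and matched 634 places, of which 3 held a called summit, those of the group itself. The third joined emb-4 and sws-1, at 94.1% identity, and 2 of its 14 places held a called summit.

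The fourth group was of another kind, since most of its copies with any peak were called. It joined pmt-2, ptr-17, K08C7.1, hpo-38 and Y22D7AR.2, whose windows were 96.5% to 98.5% identical to each other's places, and it matched 22 places with a median length of about 328 bases on all 6 chromosomes. Of these, 14 held a ranked summit and 10 a called one. The 5 in later introns had signals of 108, 107, 102.6, 97.8 and 43.1. The others that were called lay in a first intron, in an exon outside coding sequence, and at 3 places outside genes' exons and introns as classed here. A later intron of C25G6.3 held a copy with a peak of 62.7 that was not called. The other 8 copies held no ranked summit. Reads from such copies map to several places, and how the authors' aligner placed them was not stated in the labels or file headers, so whether the signals of the copies are independent of each other was not tested.

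In replicate 1's own list the peaks at pmt-2, ptr-17, K08C7.1, hpo-38 and Y22D7AR.2 had signals of 42.2, 45.6, 44.3, 44.95 and 33.1. In replicate 2's own list they had 60.7, 54.9, 53.5, 49.9 and 28.9. Each replicate thus had an overlapping peak at all 5, and the value of Y22D7AR.2 was the lowest in both. In replicate 2 the summit behind that value lay 168 bases away.

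Masking of repeats in the reference gave a 2-sided picture. Of the 692 later-intron windows that were wholly masked, 10 were called, or 1.45%, and of the 1656 with no masked base 14 were called, or 0.845%. Between these ends, 31 of 13381 windows masked under 50% and 8 of 7263 masked from 50% to under 100% were called, or 0.232% and 0.110%. Over all ranked peaks the wholly masked windows stood further apart, at 5.01%, and those with no masked base had 0.956%. The 10 wholly masked windows lay in stim-1, srw-100, daf-2, cua-1, emb-4, sws-1, W05F2.4, Y51F10.4, nft-1 and sbp-1, whose product is the worm's SREBP factor of lipid synthesis. A shift of the window against itself by at most 100 bases gave 80% or more equal bases in 7 of the 63, a sign of tandem repeats.

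Motifs were sought on both strands of the 200-base windows. The DREF element TATCGATA was in none of the 63, and in 0.265% of all later-intron and 0.286% of all ranked windows. Its shorter part CGATA, the core named for BEAF, was in 9, or 14.3%, against 18.2% and 19.7%, and every DREF element holds it. The GATA site TGATAA was in 1 window, that of sup-12, or 1.59%, against 14.7% and 16.2%. A run of 8 T was in 6 windows, or 9.52%, against 22.5% and 16.8%. Both of the last are rich in A and T, like the windows that were seldom called. The part that base composition has in the shares of these and the other motifs was not tested.

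Other motifs went in both directions. GCGCGC was in 5 windows, or 7.94% with an interval of 2.63% to 17.6%, against 2.00% of later-intron and 1.70% of ranked windows. The B box of tRNA genes was in 3, those of K08C7.1, hpo-38 and Y69A2AR.31, or 4.76%, against 0.513% and 0.606%, and the first 2 of these are copies of the same repeat. GAGAGA was in 8, or 12.7%, against 8.53% and 11.1%. The E-box CACGTG was in 1 window, that of epg-9, or 1.59%, against 3.70% and 4.11%. GGGCGG was in 4 windows, or 6.35%, against 4.37% and 4.19%, within its interval of 1.76% to 15.5%. TTGCAA was in 4 windows, or 6.35%, against 9.95% and 10.1%. TGANTCA was in 2, or 3.17%, against 4.53% and 5.68%, and TGTTTAC was in none, against 2.01% and 2.14%. Matches describe the letters in these windows and are not sites.

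Words of 8 bases were then counted with 1 window kept for each group of similar windows, which left 53. These words were chosen after their counts were seen. The highest ratio among words in 5 or more windows was that of GAGAAAGA or its reverse complement, in 5 windows, or 9.43%, against 1.33% of all later-intron windows. The next was AGGCAGGC, in 7 windows, or 13.2%, against 1.89%, among them those of cmk-1 and mdt-26. No 8-base word was in more than 9 of the 53 windows.

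Signals on the sides of the IDR threshold overlapped in part. Just inside it were mcm-2, with a signal of 72.5 and an IDR of 0.00992, F23C8.7, with 72.2, and srw-82, with 72.3. Just outside it were btbd-10, with 72.6 and an IDR of 0.0101, a further peak of stim-1, with 53.7, and nlf-1, with 67.4. The highest uncalled signals were 79.3 in ucr-2.2, 75.97 in unc-82 and 75.5 in C06H5.6, the last with an IDR of 0.0737. These values are within the range of the called peaks, and no test was made across the threshold.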

How the data were processed

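Per the labels, chromatin from 2 biological replicates of tagged worms was immunoprecipitated and sequenced, and mapped to build ce11. The authors called peaks per sample and on pooled samples. The deposited files give per peak a signal, a score and the −log10 of the IDR, all made by the authors. Their aligner and caller were not given in the sources used here.

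Places were classed with Ensembl release 115 and the RefSeq genome of WBcel235, whose chromosome lengths held every peak. An exon of any annotated transcript counted as an exon, and a start of any transcript of a protein-coding gene as a start. If several introns held a summit, the shortest was the host. The order of classes was small RNA gene, promoter, coding exon, other exon, first intron, later intron and other. Python 3.11.15, numpy 2.4.6, pandas 2.3.3, scipy 1.17.1 and blastn 2.17.0 were used. Intervals are exact Clopper-Pearson at 95%. The unlabelled replicate columns of the joint lists were not used: values per replicate came from its own list, by an overlap of at least 1 base. Classes and unique words were tested on simulated data.

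Genes were named by rule: peaks of the larger final list that were among the 25 of highest signal, called in both replicates' own lists or in a gene list, and those at the ends of intron length or next to the threshold. Other names were chosen after their values were seen. The members, lists and motifs were chosen with earlier results of these data known.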

Additional observations from a re-analysis of the deposited data

How the results depend on the processing

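With the whole peak required to lie within the intron, 11631 peaks remained, 0.378% were called and 43.2% of these were in unique windows. At an IDR of 0.001 the share called was 0.0305% with a median signal of 121, and at 0.05 it was 1.64% with 59.2. In unique windows alone the share was 0.203%, and in the other ranked list from both replicates 0.209%. Leaving out either replicate gave 0.0750% to 0.0788% called, median signals of 54.6 to 60.8 and 7 to 8 peaks on the final list, since a single replicate's own lists were then used. Counting any ranked peak of a replicate's list as overlap gave 96.8% for replicate 1 and 96.8% for replicate 2. The other 40 values of the main results moved by less than their interval or by under 1.5 times. With 50 bases on either side of the summit, the motifs TGANTCA and CACGTG and the B box were in none of the 63 windows. The share of unique windows could not be recomputed in unique windows alone. No paired analysis was possible because there is 1 group and no test over samples. Depth is unknown and limits what the peaks below the threshold can show, and the control was not analysed here.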

Other observations

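In later introns, 2 peaks that were not called in the list from both replicates overlapped a called peak of 1 replicate, apart from a weak neighbour of the mdt-26 peak that overlapped the same own-list peaks as it does. They were chosen after their values were seen. The suro-1 peak had a signal of 66.7 and an IDR of 0.0120, and was called in replicate 1's list, with 41.7, and not in replicate 2's, with 32.3. The Y18H1A.14 peak had a signal of 33.1 and an IDR of 0.0467, and was called in replicate 2's list, with 46.5, and had no ranked peak in replicate 1's.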
